A study of Mus musculus with 6 samples.

Results

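A set of genes known from fat tissue was examined in mouse kidney RNA: Adipoq, Retn, Lep, Cfd, Car3, Fabp4, Plin1 and Cidec. Members were the probe sets whose platform annotation gives 1 single gene symbol from this set, with older symbols matched by Entrez identifier. This rule found 12 of 45037 probe sets, which measure 6 of the 8 genes. Plin1 and Cfd had no such probe set in the annotation used and were not analysed here. The rule used names and no measured values, but the genes were chosen with earlier results of these data known.

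The study hybridised kidney RNA of male mice aged 10 weeks to Affymetrix arrays, with 1 animal per array. In the ICD group, 3 mice heterozygous for the intracellular domain of megalin expressed that domain, and 3 wild type littermates (WT) were the controls. The title of the series asks whether the soluble domain affects proximal tubular function. The labels give neither the promoter that drives the domain nor the strain.

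White adipocytes store triglyceride in 1 large lipid droplet and release hormones, the adipokines. Brown adipocytes burn fat to make heat. A mouse kidney lies in perirenal fat and has fat in its hilum, so adipocyte transcripts in kidney RNA are commonly read as a sign of fat carried along with the organ. In bulk RNA, fewer cells of a type and less RNA per cell cannot be told apart.

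All values are RMA values on the log2 scale, so a difference of 1 is a doubling of signal. RMA makes arrays comparable but gives probe sets no common scale, so levels are compared between arrays and not between genes. The 6 arrays had medians between 6.62 and 6.66 and correlated with each other at 0.995 to 0.997. The tissue label fitted its markers: Umod, the major protein of the thick ascending limb, read 14.32 to 14.43 and Kap, a kidney androgen-regulated protein, 14.99 to 15.11. Megalin's own gene, Lrp2, read 12.25, 12.37 and 12.26 in ICD kidneys at the probe set 1427133_s_at, against 13.01, 12.97 and 12.13 in WT kidneys. The array labelled WT 3 thus lay with the ICD arrays at this probe set. At the probe set 1452320_at Lrp2 read 12.77 to 12.93 in ICD kidneys and 12.78 to 12.92 in WT kidneys. At the dimmer 1445901_at it read 7.21, 6.83 and 6.93 in ICD kidneys, against 6.77, 7.23 and 6.62 in WT kidneys. There WT 1 and WT 3 both lay below all ICD arrays. Because of 1427133_s_at, WT 3 is called the array labelled WT 3 below, and fat gene differences are also given without it.

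None of the 12 fat gene probe sets passed the test between ICD and WT kidneys (limma, Benjamini-Hochberg adjusted p under 0.05 over all 45037 probe sets). The share of all probe sets that passed was 0%. At an unadjusted limma p under 0.05 the count was 0 of 12 fat gene probe sets, against 5.86% of all probe sets, or 3.61% when only those higher in ICD are counted. The groups overlapped at each of the 12, whereas 5.44% of all probe sets lay without overlap higher in ICD and 5.05% lower. What the fat genes showed was a spread between animals. Adipoq differed 2.38-fold between the highest and the lowest of the 6 arrays, Cidec 2.14-fold and Retn 2.01-fold. The median over the 6 genes, taking the brightest probe set of each, was 1.98-fold, against 1.20-fold over 18193 genes. The array WT 1 gave the lowest value at all 12 fat gene probe sets. Over all probe sets WT 1 was the lowest array for 15.3%.

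**Figure D1:**
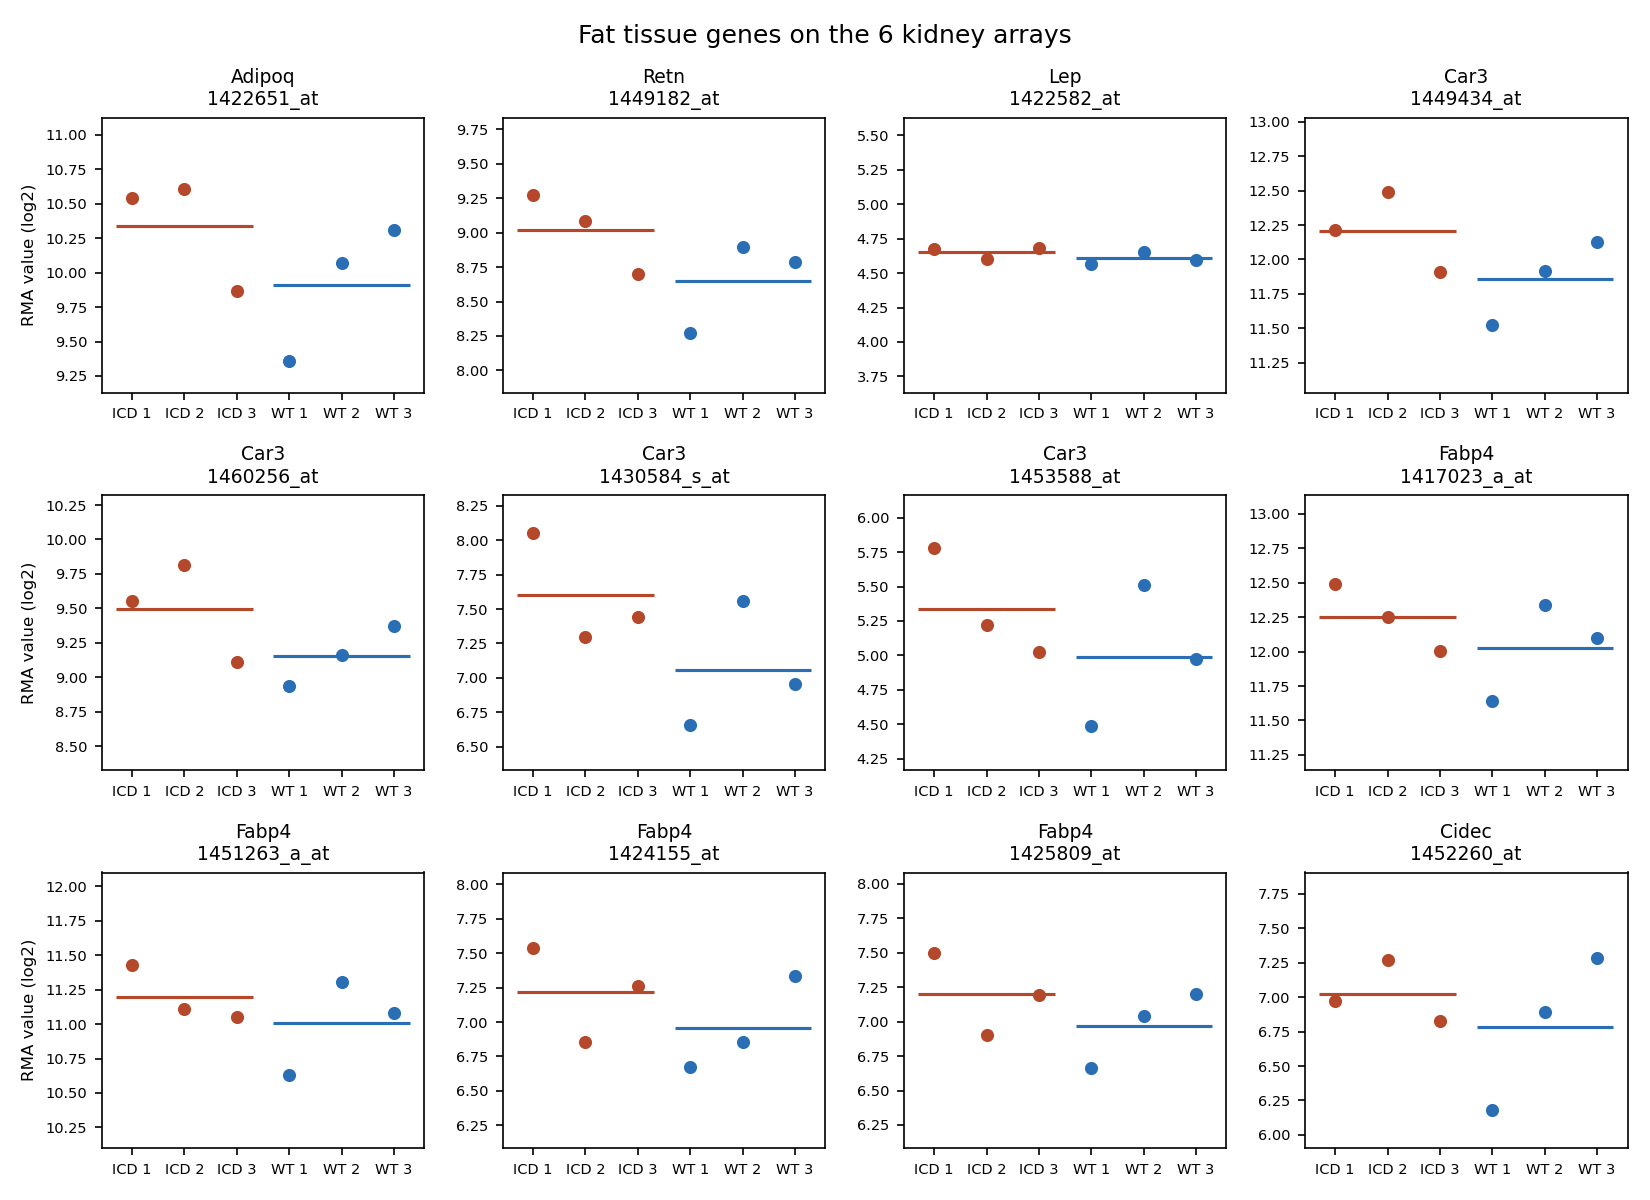
RMA values (log2, vertical axis) of the 12 fat gene probe sets on the 3 ICD arrays (red, left) and the 3 WT arrays (blue, right). Points are single animals, lines are group means, and each panel spans 2 log2 units around its own mean; WT 1 is the lowest point in every panel, and Lep is nearly flat.

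Sequences are shown for Adipoq, the adipokine with the widest spread, and for Lep, the adipokine that stayed dim and flat. Windows run from 250 bases before to 50 bases after the annotated start, from RefSeq, build GRCm38.p6, 5′ to 3′ on the gene's strand. Both genes lie on the plus strand, with windows at chr16:23146286-23146585 and chr6:29059971-29060270. Capitals mark matches, on either strand, to 4 motifs chosen after the windows were seen: the TATA box (letters TATAAA), the CCAAT box, the C/EBP palindrome TTGCGCAA, and AGGTCA, the core of nuclear receptor sites. None of the motifs overlap each other in these windows.
Adipoq: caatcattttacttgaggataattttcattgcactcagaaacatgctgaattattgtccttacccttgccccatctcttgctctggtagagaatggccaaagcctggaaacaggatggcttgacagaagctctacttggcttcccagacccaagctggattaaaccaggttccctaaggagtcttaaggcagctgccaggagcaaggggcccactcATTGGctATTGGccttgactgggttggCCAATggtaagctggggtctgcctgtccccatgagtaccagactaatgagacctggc
Lep: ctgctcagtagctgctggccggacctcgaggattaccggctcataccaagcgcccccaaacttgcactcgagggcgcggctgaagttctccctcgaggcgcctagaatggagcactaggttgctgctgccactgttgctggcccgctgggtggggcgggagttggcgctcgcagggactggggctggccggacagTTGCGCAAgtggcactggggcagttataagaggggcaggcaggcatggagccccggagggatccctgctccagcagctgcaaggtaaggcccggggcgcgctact
The Adipoq window held 3 CCAAT matches, the first 2 on the opposite strand, starting 34, 27 and 7 bases before the start site. At least 1 CCAAT match was present in 37.4% of 32851 promoter windows in the same table. The Lep window held the palindrome TTGCGCAA, starting 55 bases before the start site. This motif was present in 60 windows, or 0.183%. TATAAA was present in 13.6% of all windows and AGGTCA in 16.3%. The window of Retn and the 2 windows of Cidec held none of the 4 motifs, and windows of Car3 and Fabp4 were not used here. A match is a description of the letters and not a bound site.

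The adipokines come first. Adipoq encodes adiponectin, a hormone made almost wholly by adipocytes. It read 10.54, 10.61 and 9.87 in ICD kidneys, against 9.36, 10.07 and 10.31 in WT kidneys. ICD 1 and ICD 2 were the highest arrays, but ICD 3 lay below WT 2 and the array labelled WT 3. The means were 10.34 ± 0.41 (SD, n = 3) in ICD and 9.91 ± 0.50 in WT kidneys. The difference of 0.43 had a 95% confidence interval of -0.18 to 1.03 (limma adjusted p = 0.929). It was 0.15 without WT 1 and 0.63 without the array labelled WT 3.

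Retn encodes resistin, which in mice is secreted by adipocytes. It read 9.28, 9.08 and 8.70 in ICD kidneys, against 8.27, 8.90 and 8.79 in WT kidneys. ICD 1 and ICD 2 were again above the WT arrays, and ICD 3 lay between WT 1 and the other WT arrays. The difference was 0.37 (interval -0.062 to 0.80, limma adjusted p = 0.891). It was 0.18 without WT 1 and 0.44 without the array labelled WT 3.

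Lep encodes leptin, the hormone that reports fat stores to the brain. It read 4.68, 4.60 and 4.68 in ICD kidneys, against 4.57, 4.66 and 4.59 in WT kidneys. No array stood apart, and the whole range was 0.11. The difference was 0.047 (interval -0.10 to 0.20, limma adjusted p = 0.981). It was 0.041 without the array labelled WT 3. The probe set was dim, at the 16.0th percentile of mean signal over all probe sets, where RMA compresses differences. Flat values there do not show that leptin transcripts were the same in all animals.

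Car3 encodes carbonic anhydrase 3, a cytosolic enzyme abundant in adipocytes and also in skeletal muscle and male liver. Its brightest probe set, 1449434_at, read 12.22, 12.49 and 11.91 in ICD kidneys, against 11.52, 11.92 and 12.13 in WT kidneys. ICD 2 was the highest array, and ICD 3 lay level with WT 2 and below the array labelled WT 3. The difference was 0.35 (interval -0.061 to 0.76, limma adjusted p = 0.894). It was 0.18 without WT 1 and 0.49 without the array labelled WT 3. A second probe set annotated with the same accession, 1460256_at, differed by 0.34 (interval -0.065 to 0.74), and by 0.18 without ICD 2. Without the array labelled WT 3 it differed by 0.45.

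The other pair of Car3 probe sets gave another order of animals. The probe set 1430584_s_at read 8.06, 7.30 and 7.44 in ICD kidneys, against 6.66, 7.56 and 6.95 in WT kidneys. ICD 1 was the highest array and WT 2 the next, whereas ICD 2, the highest array at 1449434_at, lay below ICD 3 and WT 2 here. This probe set had the largest difference among the 12, 0.54 (interval -0.030 to 1.12, limma adjusted p = 0.867). It was 0.34 without WT 1, 0.32 without ICD 1 and 0.49 without the array labelled WT 3. The dimmer 1453588_at differed by 0.35 (interval -0.25 to 0.95), by 0.10 without WT 1 and by 0.34 without the array labelled WT 3. Over the 6 arrays, 1449434_at and 1460256_at correlated at 0.97, and 1430584_s_at and 1453588_at at 0.94. Correlations across the 2 pairs lay between 0.43 and 0.60. The 2 pairs are annotated with different accessions, and the suffix s_at marks probes that several transcripts can share.

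Fabp4 encodes the fatty acid binding protein of adipocytes, also called aP2, which is made by capillary endothelium and macrophages as well. Its brightest probe set, 1417023_a_at, read 12.49, 12.25 and 12.004 in ICD kidneys, against 11.64, 12.34 and 12.10 in WT kidneys. ICD 1 was highest, WT 2 followed, and ICD 3 lay below the array labelled WT 3. The difference was 0.22 (interval -0.19 to 0.64, limma adjusted p = 0.951), and 0.033 without WT 1. The next probe set, 1451263_a_at, differed by 0.19 with all arrays and by 0.0046 without WT 1. The dimmer pair, 1424155_at and 1425809_at, differed by 0.26 and 0.23, and by 0.12 and 0.080 without WT 1. Without the array labelled WT 3 these Fabp4 probe sets, in the order given, differed by 0.26, 0.23, 0.45 and 0.35. Within each pair the probe sets correlated at 0.98 and 0.95, and across the pairs at 0.51 to 0.80. In the bright pair ICD 2 lay above ICD 3, and in the dim pair ICD 2 lay below ICD 3.

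Cidec encodes a protein that fuses lipid droplets and is needed for the single large droplet of white adipocytes. It read 6.98, 7.27 and 6.83 in ICD kidneys, against 6.18, 6.89 and 7.28 in WT kidneys. The array labelled WT 3 was the highest, just above ICD 2, and WT 1 stood well below all others. The difference was 0.24 (interval -0.33 to 0.81, limma adjusted p = 0.970). Without WT 1 it was -0.063, and without the array labelled WT 3 it was 0.49.

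**Figure D2:**
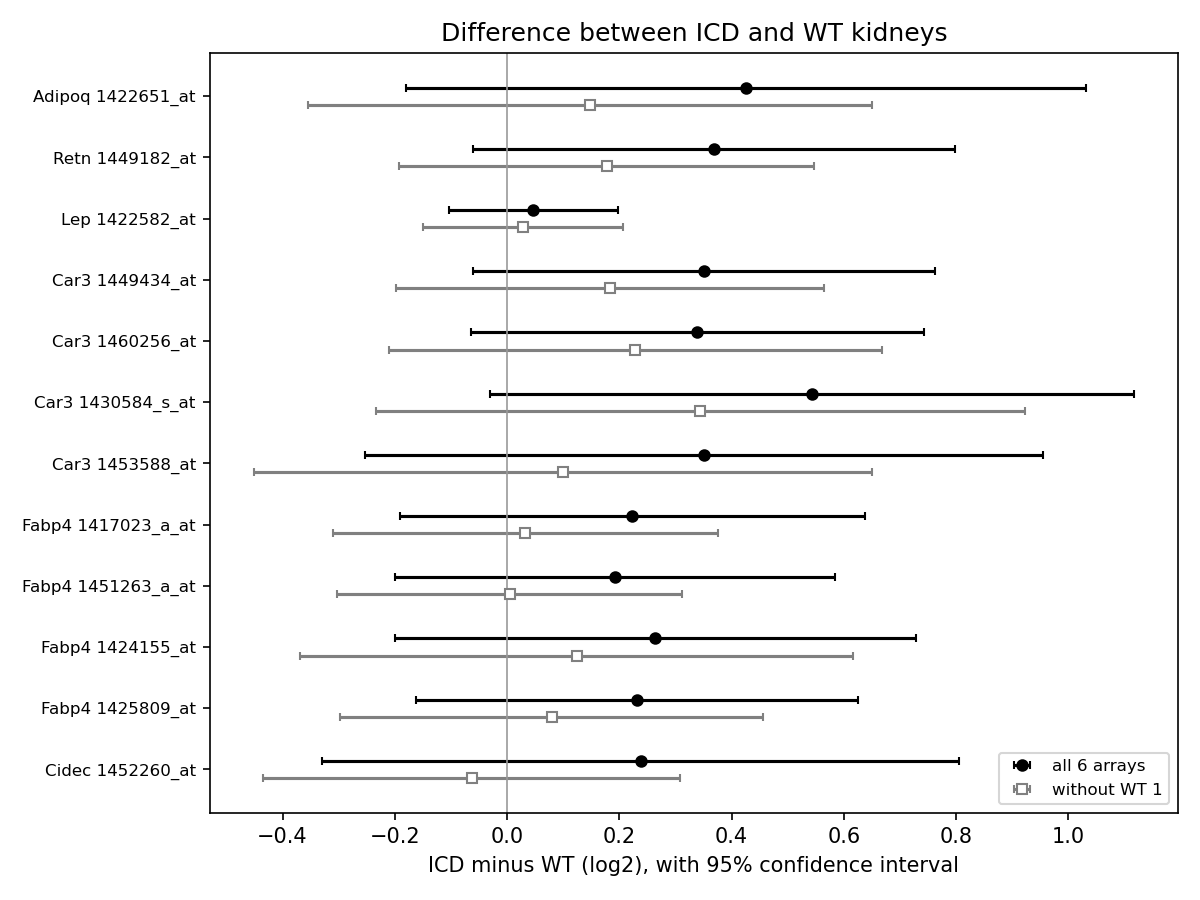
Difference of ICD minus WT kidneys (log2, horizontal axis) for each fat gene probe set, with 95% confidence intervals from limma, for all 6 arrays (black circles) and without WT 1 (grey squares). All intervals include 0, and every estimate moves toward or past 0 without WT 1.

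As a group, the ICD mean lay above the WT mean at 12 of 12 fat gene probe sets, against 47.2% of all probe sets. These 12 come from 6 genes on the same 6 animals and are not independent. The median difference over the 6 genes was 0.29, against -0.012 over 18193 genes. It was 0.090 without WT 1, 0.46 without the array labelled WT 3, and 0.22 to 0.42 without any other single array. At each of the 12 probe sets the range within the 3 ICD animals was wider than the difference between the groups, and so was the range within the 3 WT animals. For Adipoq these ranges were 0.74 in ICD and 0.95 in WT kidneys. A fat score, which averages the deviations of the 6 genes from their own means, was 0.25, 0.27 and -0.11 in ICD kidneys. In WT kidneys it was -0.52, 0.017 and 0.090. ICD 3 thus scored below WT 2 and the array labelled WT 3.

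The fat genes varied together over the animals, as a description over 6 arrays. Among Adipoq, Retn, Car3, Fabp4 and Cidec, each at its brightest probe set, the 10 pairs correlated at 0.69 to 0.96, with a median of 0.88. Adipoq and Car3 formed the closest pair, followed closely by Retn and Fabp4 at 0.96, and Fabp4 and Cidec the loosest. The 5 pairs with Lep, also at brightest probe sets, correlated at 0.18 to 0.61. With the other Car3 and Fabp4 probe sets Lep correlated at 0.054 (Car3 1460256_at) to 0.87 (Car3 1430584_s_at). All pairs share the same animals and arrays, and the low values of WT 1 enter every one.

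**Figure D3:**
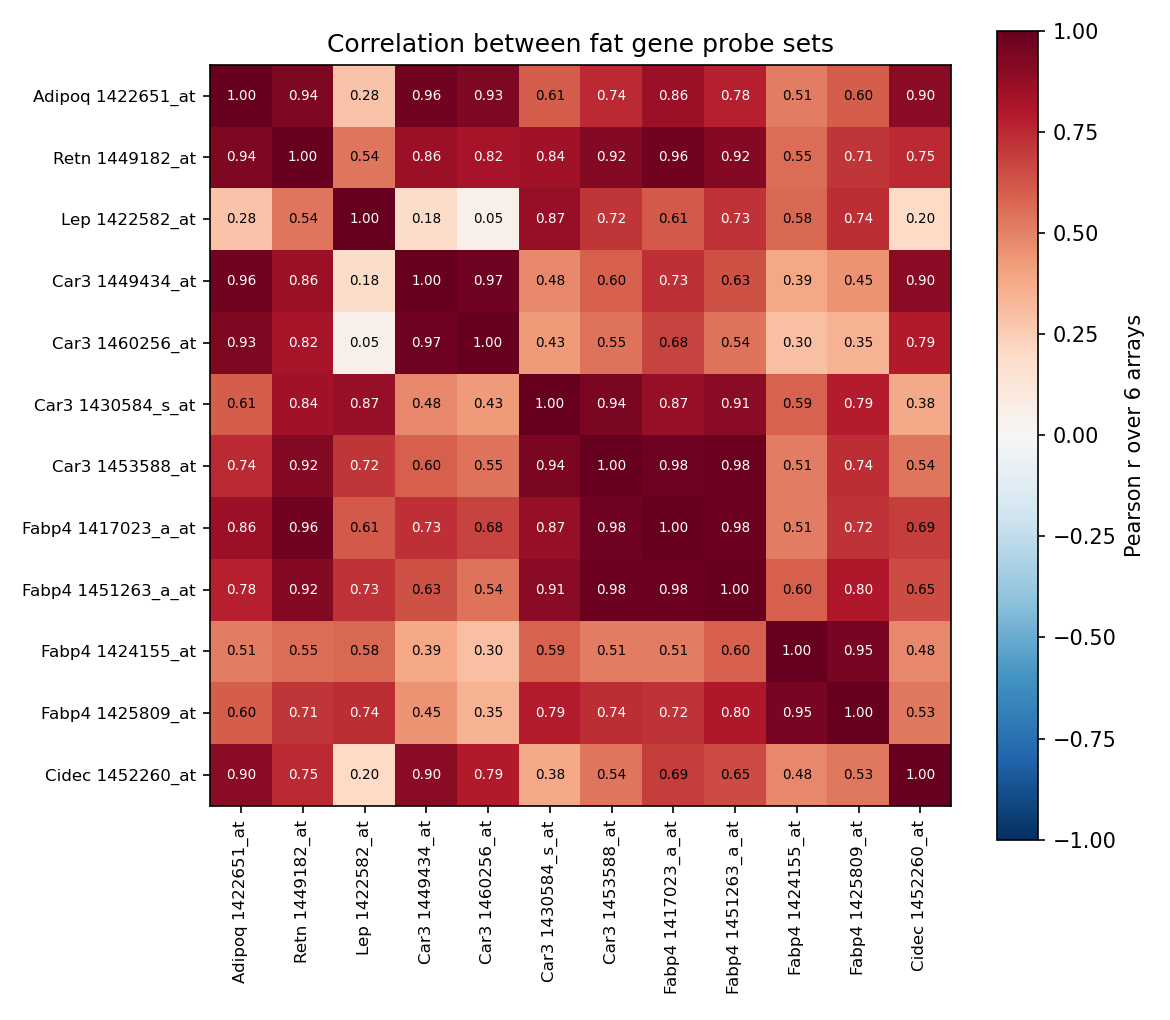
Pearson correlation over the 6 arrays between the 12 fat gene probe sets, as numbers and colour from -1 (blue) to 1 (red). The bright Car3 pair goes with Adipoq at 0.96 and 0.93, the dim Car3 probe set 1453588_at goes with the bright Fabp4 pair at 0.98, and Lep has low values with Adipoq and bright Car3.

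Of the 14 measured genes on the brown fat list, 6 were highest on WT 2, among them Ucp1, which was chosen by rule. Over all probe sets WT 2 was the highest array for 16.8%. Ucp1, the uncoupling protein that makes heat in brown adipocytes, read 8.82, 9.12 and 8.28 in ICD kidneys, against 8.33, 9.86 and 9.10 in WT kidneys. WT 2 was the highest array, and ICD 3 and WT 1 were the lowest. Its difference was -0.36 (interval -1.17 to 0.46, limma adjusted p = 0.969). Cidea and Cox8b, a droplet protein and a respiratory chain subunit of brown fat, are named after their values were seen. Cidea read 9.29, 8.86 and 8.55 in ICD kidneys, against 8.13, 9.49 and 8.77 in WT kidneys. Cox8b read 8.49, 8.51 and 7.98 in ICD kidneys, against 7.70, 8.91 and 8.47 in WT kidneys. These 3 were highest on WT 2. There, at the brightest probe sets, Adipoq, Car3 and Cidec lay near or below their means and Retn and Fabp4 above theirs. The dimmer pairs of Car3 and Fabp4 went the other way on WT 2, Car3 above its means and Fabp4 below. Ucp1, Cidea and Cox8b were low on ICD 3 and WT 1, as the fat genes except Lep were at their brightest probe sets. Lep had its highest value on ICD 3, where Car3 1430584_s_at and the dim Fabp4 pair also lay above their means. Over the 6 arrays the 3 brown fat genes correlated with the fat score at 0.51 for Ucp1, 0.73 for Cidea and 0.76 for Cox8b. The score of the whole list correlated at 0.69. Cox7a1, also chosen by rule and highest on WT 2, correlated at 0.31. The remaining genes of the list ran from 0.62 for Otop1 to -0.42 for Dio2. Other genes of the list peaked elsewhere: Ppargc1a, a coactivator of mitochondrial genes that kidney tubules also express, was highest on ICD 2 and differed by 0.41 ± 0.14 (SE, limma adjusted p = 0.738), and Pdk4, an inhibitor of glucose oxidation, was highest on ICD 1 and differed by 0.33 ± 0.15. In all, 7 of the 14 lay above 0 and 7 below, with a median difference of -0.0049 and none past the threshold. Over 18193 genes, 43.9% lay above 0.

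**Figure D4:**
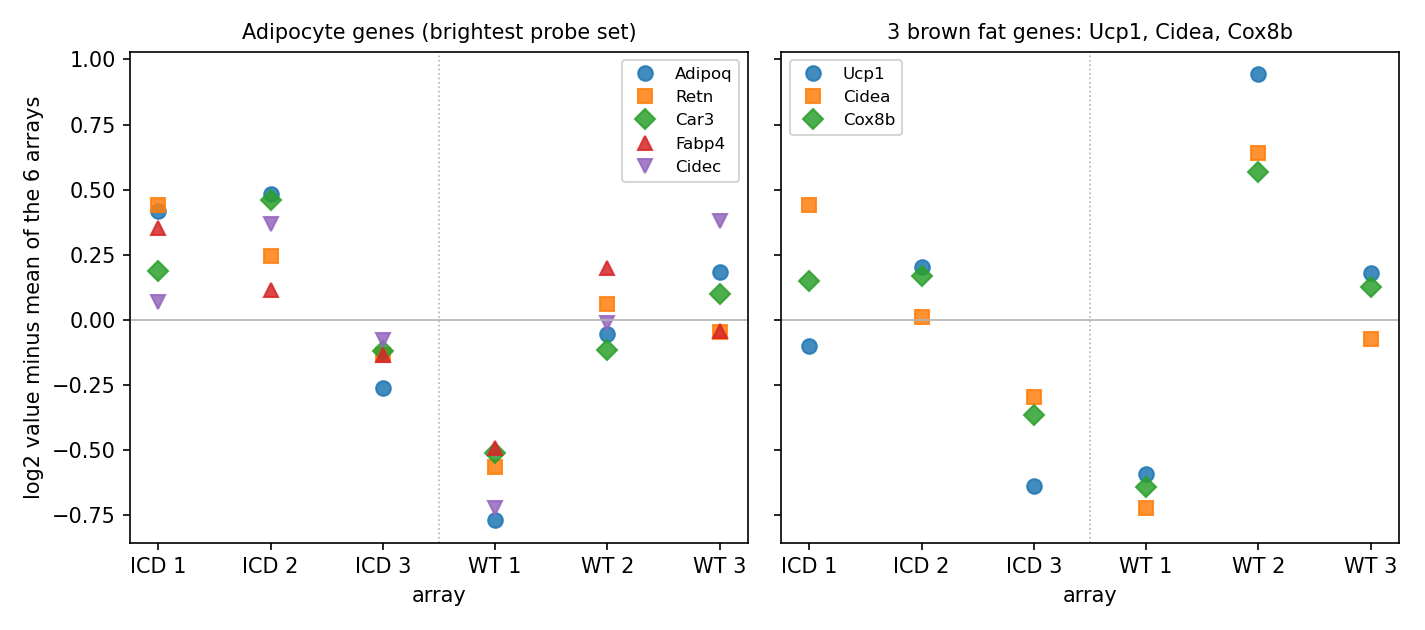
Deviation of each log2 value from its gene's mean (vertical axis) for 5 adipocyte genes at their brightest probe set (left) and 3 brown fat genes (right), with the ICD arrays left and the WT arrays right of the dotted line. The adipocyte genes are highest on ICD 1, ICD 2 or the array labelled WT 3, these 3 brown fat genes on WT 2, and both sets are low on ICD 3 and WT 1.

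Other genes of the adipocyte varied less or in another order. None of the 20 measured genes of lipid storage and release passed the threshold. Of these, 13 lay above 0 and 7 below, and the median difference was 0.030. Over 18193 genes, 43.9% lay above 0. Lipe, hormone-sensitive lipase, read 8.24, 8.03 and 7.87 in ICD kidneys, against 7.77, 7.92 and 8.04 in WT kidneys, in an order much like that of the fat genes (r = 0.85 with the fat score over 6 arrays); it is named after its values were seen. G0s2, an inhibitor of triglyceride breakdown, differed by 0.27 ± 0.086 (SE, limma adjusted p = 0.725), with all ICD values at 9.51 to 9.64 and all WT values at 9.21 to 9.47. Plin2, the droplet coat protein of many cell types, differed by 0.25 ± 0.37. Mgll, monoglyceride lipase, differed by -0.44 ± 0.18 (limma adjusted p = 0.840). The score of this list followed the fat score at r = 0.92, but ran only from -0.10 on WT 1 to 0.046 on ICD 2. The fat score ran from -0.52 to 0.27 on the same arrays. Single genes of the list correlated with the fat score from -0.68 for Mgll to 0.88 for Pnpla2. Cidea is on both this list and the brown fat list.

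Of the adipogenic factors, 10 of 18 lay above 0 (median 0.044), with Cebpa, a C/EBP factor that is active in kidney and liver as well, at 0.24 ± 0.11. Pparg, the master factor of adipocytes and named after its values were seen, read 7.37, 7.22 and 7.07 in ICD kidneys, against 7.17, 7.38 and 7.25 in WT kidneys. Of the genes of fatty acid synthesis, 8 of 11 lay above 0 (median 0.057). Scd1, the stearoyl-CoA desaturase, differed by 0.69 ± 0.33 and Fasn, fatty acid synthase, by 0.29 ± 0.24, both highest on ICD 1 and lowest on the array labelled WT 3, where Cidec was highest. Of the other secreted products, 7 of 10 lay above 0 (median 0.048). Adipose stroma genes lay above 0 for 10 of 12 (median 0.051). Over 18193 genes the share above 0 was 43.9%, with a median of -0.012. The stroma score was -0.017, -0.070 and 0.21 in ICD kidneys, against 0.22, -0.12 and -0.21 in WT kidneys. It was thus highest on WT 1, the array lowest in the fat genes, and correlated with the fat score at -0.70. No gene of these lists passed the threshold over all probe sets, of which 0% passed.

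Cell types that share a fat gene were compared with it, with endothelium and liver lists added after the data were seen. The 12 endothelial markers scored -0.044, 0.015 and 0.17 in ICD kidneys, against 0.25, -0.063 and -0.32 in WT kidneys. They were thus highest on WT 1, where every Fabp4 probe set was lowest, and their score correlated with the fat score at -0.63. Between the groups, 11 of the 12 lay above 0 (median 0.092), the direction of the Fabp4 differences. With single arrays left out this median ran from -0.066 to 0.23, and the endothelial score was lowest on the array labelled WT 3. No list of macrophage genes was used. The 10 skeletal muscle markers scored near 0 on ICD 1 and -0.040 and -0.021 on ICD 2 and ICD 3, against -0.034, -0.027 and 0.12 in WT kidneys. Of these, 7 were highest on the array labelled WT 3, the highest array for 20.0% of all probe sets. Tnni2, a troponin chosen by rule, ran from 7.19 on ICD 2 to 7.66 on the array labelled WT 3. Acta1, skeletal actin and not chosen by rule, stayed between 5.36 and 5.65 but was dim, at the 30.6th percentile. The 8 liver markers scored 0.10, 0.080 and -0.18 in ICD kidneys, against -0.053, 0.017 and 0.030 in WT kidneys (r = 0.65 with the fat score). Among them albumin read 7.07 to 7.49 and Fga, a fibrinogen chain, 8.22 to 9.46. Apoa2, an apolipoprotein, read 7.84 to 7.96 in ICD kidneys, against 7.44 to 7.50 in WT kidneys, a difference of 0.45 ± 0.067 (SE, limma adjusted p = 0.328). These 3 are named after their values were seen. The kidney markers scored between -0.024 and 0.052 on all arrays. Of other tissues next to the kidney, 3 of 13 adrenal genes, 3 of 8 genes of mesothelium and capsule, 1 of 8 urothelial genes, 1 of 3 blood genes and 4 of 7 lymphoid genes lay above 0, with none past the threshold. In this order the scores of these 5 lists correlated with the fat score at -0.14, -0.66, -0.63, -0.33 and -0.29. Of the muscle markers 4 of 10 lay above 0, and of the liver markers 5 of 8. Over 18193 genes the share above 0 was 43.9%. The part of these cell types and tissues in the fat gene values was not tested.

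Genes outside the set with the most similar pattern were ranked by Pearson r with the fat score over the 6 arrays. Eligible were 1223 genes whose mean signal was not below the overall median and whose values spanned 0.5 or more over the arrays. The closest were 2410002F23Rik (r = 0.995), Mpzl2 (0.993), a cell adhesion protein, Cirbp (0.978), the cold-inducible RNA-binding protein, and Slc36a2 (0.975), an amino acid transporter found in adipocytes and in kidney. Slc36a2 read 7.79, 7.72 and 7.48 in ICD kidneys, against 6.93, 7.63 and 7.64 in WT kidneys, with WT 1 again well below the rest. Rfc3, Lgr4, Cyp2j9, Hnrnpdl, Ccdc84, Pclo, Rpl27a and Bbox1 followed at 0.963 to 0.913. The lowest were Slc16a13 (-0.984), Rhob (-0.971) and Il34 (-0.935). In all, 13 genes exceeded 0.9 and 9 lay under -0.9. With 6 arrays and 1223 candidates, such values are a ranking only. None of these 15 genes passed the threshold between the groups.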

How the data were processed

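The authors deposited 1 table of log2 values from 6 Affymetrix arrays, made with RMA per the submitters' processing notes. Its version, the chip definition and any filter are not given in the sources used here. RMA corrects background, equalises the distributions and summarises probe sets, which compresses dim signals. The number of arrays limits precision. Of 45101 rows, 64 controls were left out. The annotation gave 1 symbol for 34945 of 45037 probe sets, several for 932 and none for 9160. Names were checked in RefSeq (GRCm38.p6), and 0 changed. No pair of arrays was identical.

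Groups came from the sample titles. ICD minus WT was tested with limma 3.58.1 in R 4.3.3 (lmFit, eBayes, 2-sided, Benjamini-Hochberg over 45037). In simulated data with 200 of 45037 probe sets changed by 1 log2 unit, 92.5% were recovered with 4 false calls. The simulated spread was drawn from the prior fitted over all probe sets. The fat genes other than Lep ranged more widely, Adipoq at the 99.4th percentile of range over all probe sets. The recovered share therefore does not apply to them. A gene with several probe sets was represented in lists by the brightest. From 13 lists the rule named, per list, members past the threshold or else the 2 highest and 2 lowest differences among brighter probe sets; 2 further lists were added later. Not all named candidates are printed. The genes and lists were chosen with earlier results of these data known. Same-numbered ICD and WT arrays did not deviate together (correlations -0.0057, 0.0077 and -0.047). Alternatives were single arrays left out, a replicate block, another prior, quantile normalization, array weights, a brightness filter and the mean over probe sets.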

Additional observations from a re-analysis of the deposited data

How the results depend on the processing

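The count of fat gene probe sets past the threshold was 0 under each of the 11 alternatives fitted across probe sets, with adjusted p from 0.754 upward. Their differences kept their sign in 129 of 130 alternative values. The exception was Cidec, at -0.063 without WT 1 and 0.49 without the array labelled WT 3. Over all probe sets 1 passed with the trended and robust prior, and between 0 and 1 passed when single arrays were left out, against 0 with all arrays. No fat gene was among them. The median difference over the 6 fat genes was 0.090 to 0.46 with single arrays left out, lowest without WT 1 and highest without the array labelled WT 3. It was 0.28 with array weights or quantile normalization, 0.35 among brighter probe sets, a filter that leaves out Lep and so gives the median of 5 genes, and 0.30 when a gene's probe sets were averaged. With the replicate number as a block it was 0.29, 0 probe sets passed, and no fat gene call changed; the labels do not say that the numbers pair animals, and the correlations above gave no such sign.

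With 3 animals a group, intervals reached from 0.15 (Lep) to 0.61 (Adipoq) to either side of the estimate, so differences within these widths could not be told from 0 for these genes.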
